A study of Mus musculus with 13 samples.

Results

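The N-methyl-D-aspartate (NMDA) receptor subunit genes are the 7 mouse genes Grin1, Grin2a, Grin2b, Grin2c, Grin2d, Grin3a and Grin3b. They were taken by symbol, and all 7 were found among the 37785 genes of the count tables. All 7 passed the filter on low counts, which left 21170 genes for testing. Their RNA was followed in cells sorted with magnetic beads against Pdgfra, a receptor on oligodendrocyte precursor cells (OPCs), from brains of wild-type C57BL/6 mice. OPCs are glial progenitors from which the myelin-forming oligodendrocytes arise. The ages were E16 (embryonic, 3 libraries), P12 (early postnatal, 3 libraries), P80 (young adult, 3 libraries labelled P80 or P81) and P310 (older adult, 4 libraries labelled P306 to P308). Per the labels, only the adult brains went through myelin removal beads, so that step and adult age cannot be told apart.

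NMDA receptors are glutamate-gated channels that pass calcium and open when glutamate and glycine or D-serine bind together. Each channel holds the obligatory GluN1 subunit, encoded by Grin1, with glutamate-binding GluN2 subunits (Grin2a to Grin2d) or glycine-binding GluN3 subunits (Grin3a and Grin3b). In neurons of the forebrain Grin2b is high before birth and Grin2a comes on after birth, and OPCs, which receive synapses from neurons, are known to carry NMDA receptors as well. Grin2c is best known from cerebellar granule cells and is also found in astrocytes.

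On GRCm38, the build of the count tables, Grin1 (ENSMUSG00000026959) lies at chr2:25291181-25319187 and Grin2a (ENSMUSG00000059003) at chr16:9567898-9995560. Grin2b (ENSMUSG00000030209) lies at chr6:135713233-136173511 and Grin2c (ENSMUSG00000020734) at chr11:115249169-115267243. Grin2d (ENSMUSG00000002771) lies at chr7:45831883-45878378 and Grin3a (ENSMUSG00000039579) at chr4:49661611-49845744. These 6 genes are on the minus strand, and Grin3b (ENSMUSG00000035745), at chr10:79970715-79977190, is on the plus strand. Values are counts over all exons of each gene, UTRs included. RefSeq (GRCm38.p6) gave a promoter entry for 4 of the 7 genes. The 250 bases before the start are printed 5′ to 3′ on the gene's strand for Grin2c, the gene with the largest change between ages, and for Grin1, the subunit of every receptor. Capitals mark GC boxes, the letters GGGCGG, searched on both strands.
Grin2c, chr11:115267244-115267493, minus strand: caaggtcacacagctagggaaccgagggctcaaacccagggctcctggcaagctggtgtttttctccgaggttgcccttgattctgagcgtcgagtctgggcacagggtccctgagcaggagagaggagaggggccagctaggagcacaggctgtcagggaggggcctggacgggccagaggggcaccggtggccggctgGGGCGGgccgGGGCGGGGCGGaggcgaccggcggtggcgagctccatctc
Grin1, chr2:25319188-25319437, minus strand: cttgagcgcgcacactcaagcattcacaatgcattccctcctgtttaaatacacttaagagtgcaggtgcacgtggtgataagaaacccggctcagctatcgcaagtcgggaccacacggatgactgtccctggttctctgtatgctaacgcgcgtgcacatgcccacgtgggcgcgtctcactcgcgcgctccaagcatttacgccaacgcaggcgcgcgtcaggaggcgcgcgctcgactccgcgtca
The Grin2c window held 3 GC boxes, the last 2 overlapping each other, with 15 CpG and 68.8% G and C. The Grin1 window held 0 GC boxes and 27 CpG, with 58.8% G and C. Of 32851 mouse promoter windows of this length 32.7% held a GC box, and the median window had 6 CpG and 52.4% G and C. These matches describe the letters of the windows and were not tested for binding.

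Depth was 8669521 to 25810455 counts per library, and values are CPM (counts per library total, scaled by the TMM method). On that scale a count of 0 allows up to 0.0636 to 0.396 CPM, depending on the sample and for counting error only. Of the P12 libraries, replicates 2 and 3 were almost alike (chi-square per degree of freedom 3.88, against 30.95 to 210.08 for the 14 other pairs of one age) and were counted as 1 sample, P12 replicate 2-3, which left 12 samples and n = 2 at P12. Mitochondrial transcripts took 1.52% to 3.54% of the counts at E16, 4.44% in P12 replicate 1, 10.8% and 10.1% in the P12 libraries 2 and 3, 12.8% to 23.5% at P80 and 18.3% to 34.4% at P310. This share was thus lowest at E16 and differed between the P12 samples, and its part in the results was not tested beyond leaving out mitochondrial, ribosomal protein and haemoglobin genes, which changed no call of a subunit gene. The sorted fractions were mixed. The OPC markers Pdgfra (13.7 to 93.6 CPM) and Cspg4 (9.57 to 115.7 CPM) were counted in every sample, and of 18 OPC markers only Neu4 was at 0 in all samples of an age, E16. The summed level of these 18 markers was 880 to 1073 CPM at E16 and 708 to 946 CPM at P12. In the adults it was lower, at 365 to 493 CPM at P80 and 249 to 528 CPM at P310. The summed level of 15 immature neuron markers was 83.0 to 708 CPM in the later samples and 8236 to 9313 CPM at E16. The summed level of 16 mature neuron markers was 66.4 to 667 CPM in the later samples and 671 to 879 CPM at E16. The summed level of 12 myelin genes was 8356 CPM in P12 replicate 1, 67580 CPM in P310 replicate 2, 338 to 921 CPM in the other later samples and 62.5 to 81.5 CPM at E16. For 13 astrocyte markers the sum was 1490 to 4864 CPM in the later samples and 546 to 670 CPM at E16. For 13 endothelial markers it was 4383 to 8420 CPM in the later samples and 51.1 to 82.2 CPM at E16. In bulk samples such as these, fewer cells of a type and less RNA per cell cannot be told apart.

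Grin2c was the subunit gene that changed most with age. It stood at 0.432, 0.724 and 1.06 CPM at E16, from only 6, 12 and 18 counts. It stood at 19.2 CPM in P12 replicate 1 and 65.6 CPM in P12 replicate 2-3, at 49.4, 104 and 55.1 CPM at P80, and at 45.9, 84.8, 34.1 and 18.8 CPM at P310. All 9 later samples were far above all 3 E16 samples, and the 3 later ages overlapped each other. Grin2c rose at P12 against E16 by 5.81 ± 0.73 on the log2 scale (SE, adjusted p = 7.68e-05, edgeR quasi-likelihood test). Leaving out P12 replicate 2-3 gave 4.66, leaving out P12 replicate 1 gave 6.44, and the call held in all 23 alternatives tried. Astrocyte markers moved with it, since 11 of 13 rose at P12 against E16 and 0 fell, with a median log2 change of 3.08, and endothelial and microglial markers did likewise (13 of 13 and 10 of 12 rose). Per 100 CPM of astrocyte markers, Grin2c stood at 0.51 to 4.63 CPM in the later samples, against 0.0644 to 0.194 CPM at E16. On this scale its samples lay 2.64-fold apart at P12, 1.55-fold at P80 and 3.67-fold at P310. Per 100 CPM of mature neuron markers they lay 1.29-fold apart at P12, 2.35-fold at P80 and 1.29-fold at P310. At P310 against P12, 4 of 13 astrocyte markers fell and 0 rose, with a median log2 change of -1.14. Grin2c changed there by 0.11 ± 0.59 (SE). The part of astrocytes, neurons and the other cells in the level of Grin2c was not tested.

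Grin2a, whose GluN2A subunit gives channels of fast decay, was also higher after birth, with wide differences between samples of one age. It stood at 2.52, 1.63 and 2.18 CPM at E16, and at 4.11 CPM in P12 replicate 1 and 45.0 CPM in P12 replicate 2-3. It stood at 39.0, 38.0 and 7.58 CPM at P80, and at 30.9, 69.4, 28.5 and 6.63 CPM at P310. Every later sample was above every E16 sample, while the lowest sample of each later age was far below the others of that age. Grin2a rose at P12 against E16 by 3.54 ± 1.08 on the log2 scale (SE, adjusted p = 0.0325, edgeR). The call was lost in 7 of 23 alternatives. These included leaving out P12 replicate 2-3 (0.96, adjusted p = 0.613) and E16 replicate 1, 2 or 3 (3.69, 3.39 and 3.57, adjusted p = 0.0855, 0.0995 and 0.0987), and limma-voom (3.40, adjusted p = 0.107). Over all alternatives its lowest adjusted p was 2.02e-14. Among them is the edgeR fit without the low-count filter, which did not use each gene's own spread, so this value is not a measure of support.

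Grin2c and Grin2a were thus the 2 of 7 subunit genes called at P12 against E16, a share of 28.6% beside 27.2% of all genes tested, so the share of subunit genes called was near the background. Both were called higher, a direction in which 16.7% of all genes were called, while 10.5% were called lower. The median log2 change of the 7 genes was 1.36, that of Grin3a, which was not called, beside 0.09 over all genes. Without P12 replicate 2-3, Grin1 and Grin2d were at -1.06 and -1.14. Grin2b and Grin3b were negative whichever single sample was left out. Most of the 7 changes were thus negative without P12 replicate 2-3, and the sign of the median rests on that sample.

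**Figure D1:**
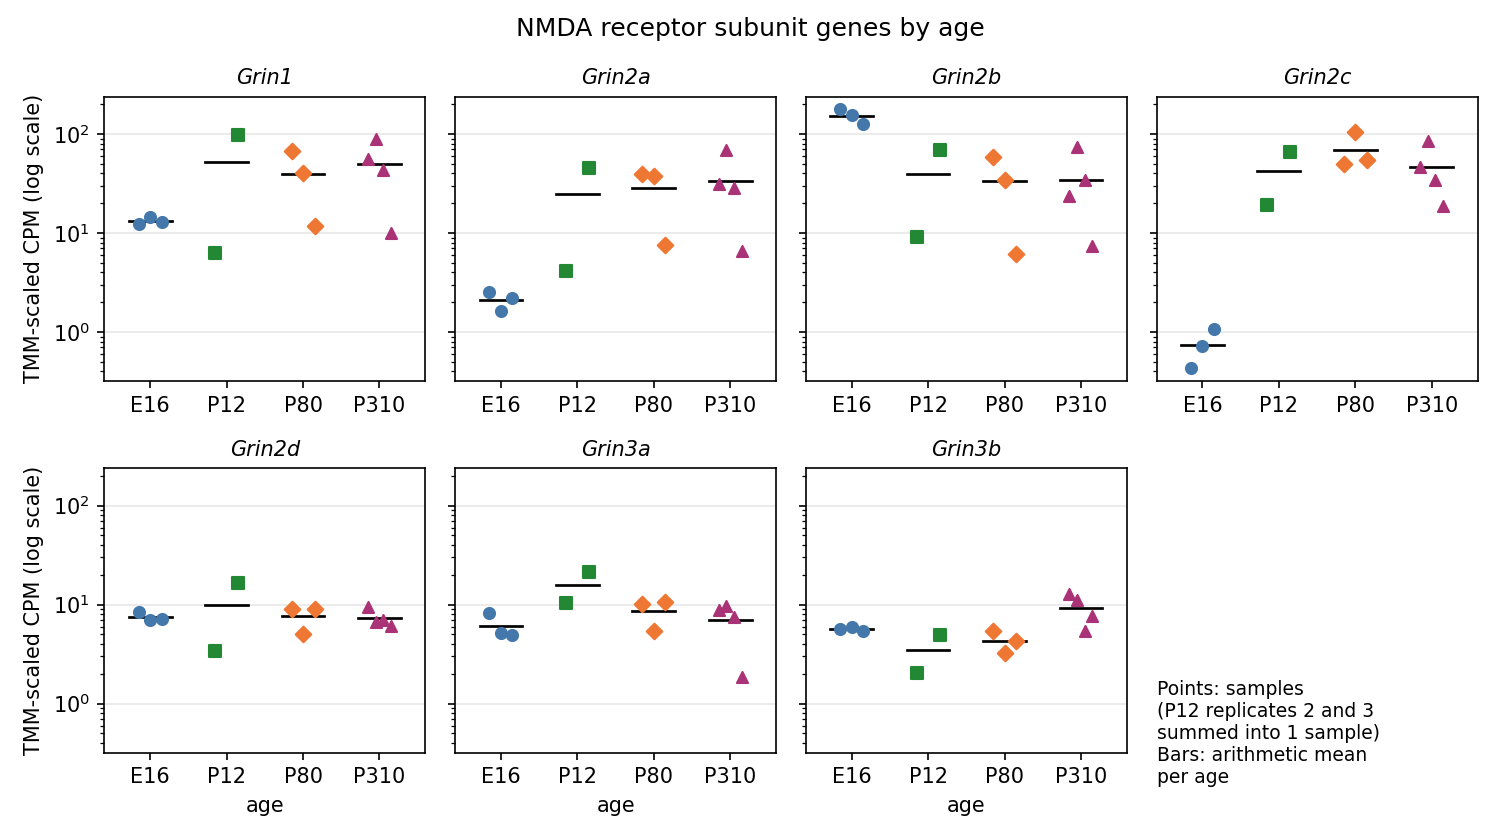
Level of each NMDA receptor subunit gene by age, with TMM-scaled CPM on a log axis, a point for each of the 12 samples and a bar for the arithmetic mean of the age. Grin2c lies at 18.8 to 104 CPM in the later samples and at 0.432 to 1.06 CPM at E16, Grin2b is highest at E16, and Grin1, Grin2a and Grin2b spread widely within each later age.

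Grin2b, encoding the GluN2B subunit of slower, embryonic-type receptors, was at its highest in the embryo. It stood at 177, 154 and 125 CPM at E16, and at 9.08 CPM in P12 replicate 1 and 69.6 CPM in P12 replicate 2-3. It stood at 59.1, 34.2 and 6.19 CPM at P80, and at 23.5, 73.1, 34.3 and 7.31 CPM at P310. All 3 E16 samples were above all 9 later samples. The log2 change at P12 against E16 was -1.94 ± 1.15 (SE) and did not pass the test (adjusted p = 0.251, edgeR), with the P12 samples 7.66-fold apart. Immature neuron markers, of which 13 of 15 fell and 0 rose at P12 against E16, moved the same way, with a median log2 change of -4.51, and their part in the level of Grin2b was not tested. Per 100 CPM of mature neuron markers, Grin2b stood at 5.20 to 23.7 CPM in the later samples and at 14.2 to 24.2 CPM at E16. On this scale the ranges overlapped, though the marker sum was itself higher at E16 (671 to 879 CPM) than later (66.4 to 667 CPM).

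Within each later age, the ratio of Grin2a to Grin2b spanned a narrower range than either gene, while it set E16 apart from all later ages. As the log2 ratio of their levels in CPM per kb of exon (pseudocount 0.05), it was -5.24, -5.47 and -4.89 at E16. The P12 samples gave -0.58 (replicate 1) and -0.16 (replicate 2-3), although each gene was many-fold higher in the second. The ratio was -0.13, 0.61 and 0.66 at P80, and 0.83, 0.39, 0.20 and 0.29 at P310. The 9 samples after birth averaged 0.23 ± 0.45 (SD, n = 9) and the E16 samples -5.20 ± 0.29 (SD, n = 3), a difference of 5.43 with no overlap (exact two-sided permutation test, p = 0.00909, the smallest this design can give, adjusted p = 0.0455 over 5 comparisons). Leaving out any 1 sample gave differences of 5.30 to 5.59, with adjusted p from 0.0606 to 0.182, because fewer samples make the smallest possible p larger. At P12 the ratio exceeded that at E16 by 4.83, where the exact test cannot go below p = 0.2. P80 exceeded P12 by 0.75 and P310 exceeded P12 by 0.79, each with no overlap and at the smallest p of its exact test (p = 0.2 and p = 0.133), and P310 exceeded P80 by 0.05 (exact permutation p = 0.857).

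**Figure D2:**
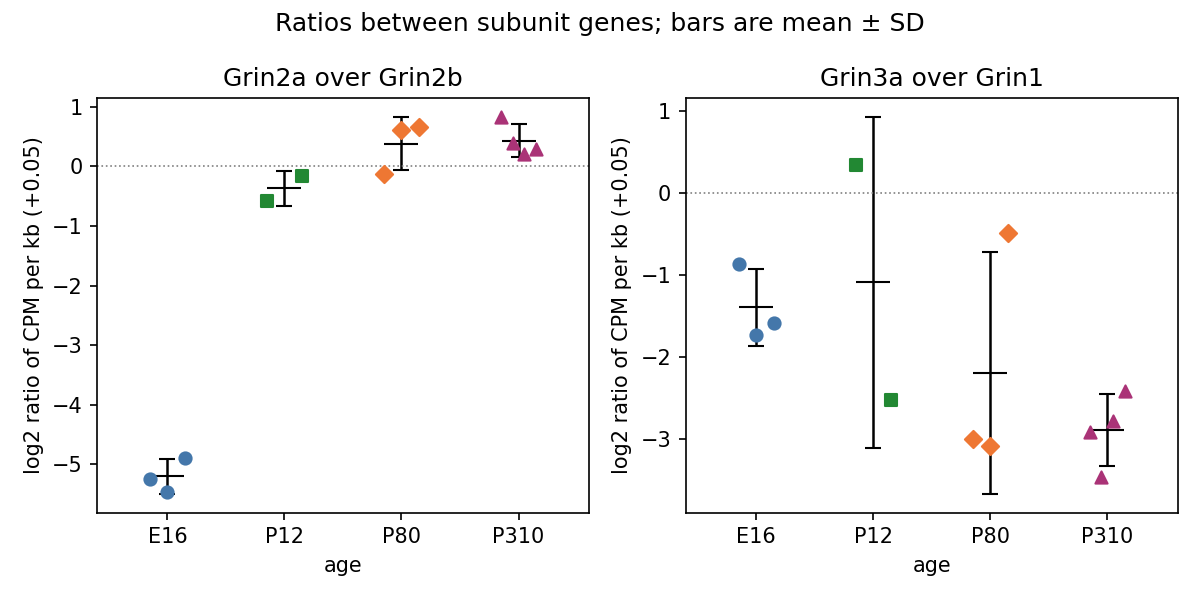
Log2 ratios of CPM per kb (pseudocount 0.05) by age for Grin2a over Grin2b and for Grin3a over Grin1, with a point per sample and bars for mean ± SD. The Grin2a to Grin2b ratio is between -0.58 and 0.83 in all later samples and near -5.20 at E16, while the Grin3a to Grin1 ratio overlaps between E16 and the later ages.

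Grin1, the gene of the obligatory subunit, stood at 12.3, 14.5 and 12.8 CPM at E16. It stood at 6.34 CPM in P12 replicate 1 and 98.1 CPM in P12 replicate 2-3, at 67.2, 40.3 and 11.9 CPM at P80, and at 56.2, 88.0, 43.6 and 9.94 CPM at P310. The E16 samples were close together, and the lowest sample of each later age was below them. The log2 change at P12 against E16 was 1.99 ± 1.06 (SE, adjusted p = 0.201, edgeR) and was -1.06 without P12 replicate 2-3. Without the 2 samples highest in myelin genes, P12 replicate 1 and P310 replicate 2, an alternative chosen after seeing the data, it was 2.93 and called (adjusted p = 0.0247). Leaving out P12 replicate 1 alone gave 2.89, which was not called. Of the exon bases of Grin1, 13.47% overlap Grin1os on the opposite strand, which stood at 1.88 to 25.3 CPM. Since the counting used no strand option, the reads of the shared part cannot be told apart.

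Grin1, Grin2a and Grin2b had their extremes in the same samples of each later age. All 3 were highest in P12 replicate 2-3, P80 replicate 1 and P310 replicate 2, and all 3 were lowest in P12 replicate 1, P80 replicate 3 and P310 replicate 4. The other subunit genes shared this fully at P12 and only in part at P80 and P310. The counts that follow are over all 7 genes, these 3 included. All 7 were highest in P12 replicate 2-3 and lowest in P12 replicate 1. At P310, replicate 2 was highest for 5 of 7 and replicate 4 lowest for 6 of 7. At P80, replicate 1 was highest for 5 of 7, and replicate 3 was lowest only for these 3. The summed mature neuron markers were 66.4 and 294 CPM at P12 in the order of replicates 1 and 2-3, 251, 337 and 119 CPM at P80, and 390, 667, 309 and 132 CPM at P310. They were lowest in the same samples as the 3 genes, and highest in the same samples at P12 and P310 but not at P80, where replicate 2 led. Single neuronal genes varied likewise, with Snap25, a synaptic vesicle fusion protein, at 2.92 to 69.8 CPM and Syt1, the vesicle calcium sensor, at 4.79 to 70.7 CPM over the later samples. All 16 mature neuron markers had counts at every age. The part of neuronal RNA in these levels was not tested. Per 100 CPM of mature neuron markers, Grin1 stood at 7.51 to 33.4 CPM in the later samples and at 1.46 to 2.17 CPM at E16. On the same scale Grin2a stood at 5.01 to 15.5 CPM in the later samples and at 0.243 to 0.345 CPM at E16. For both genes the ranges did not overlap. The marker sum was itself higher at E16 (671 to 879 CPM) than later (66.4 to 667 CPM), so a larger divisor enters the E16 values. Its makeup changed as well, with 5 of the 16 markers called lower and 1 higher at P12 against E16. In CPM the ranges of Grin1 overlapped (12.3 to 14.5 at E16, 6.34 to 98.1 later), while those of Grin2a did not. An alternative chosen after seeing the data left out the sample highest in these markers at P12, P80 and P310. The log2 change at P12 against E16 was then -1.06 for Grin1, 0.96 for Grin2a and 4.66 for Grin2c. P12 replicate 1 was the only P12 sample left, so these are the values already given without P12 replicate 2-3. All 7 subunit genes were higher in P12 replicate 2-3, so this setting cannot tell the neuron markers apart from any other difference between the P12 samples.

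**Figure D3:**
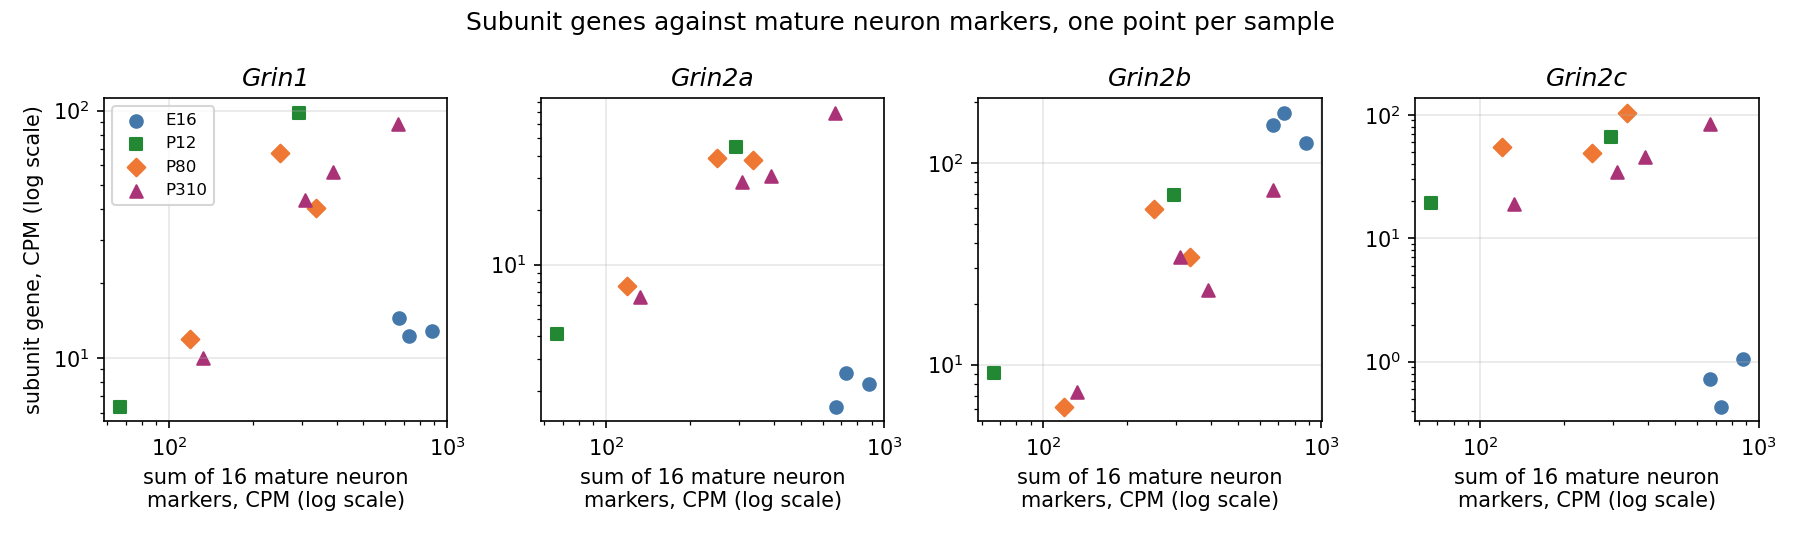
Level of Grin1, Grin2a, Grin2b and Grin2c against the summed level of 16 mature neuron markers, both in CPM on log axes, with a point per sample marked by age. Among the later samples, the 3 lowest in neuron markers (66.4, 119 and 132 CPM) are also the 3 lowest in Grin1, Grin2a and Grin2b, and the E16 samples lie apart, with high markers and low Grin1, Grin2a and Grin2c.

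Grin2d, Grin3a and Grin3b passed the test in no comparison. Grin2d, whose GluN2D subunit gives channels of slow decay, stood at 8.49, 7.0 and 7.13 CPM at E16, and at 3.42 CPM in P12 replicate 1 and 16.4 CPM in P12 replicate 2-3. It stood at 9.0, 5.06 and 8.97 CPM at P80 and at 9.37, 6.71, 7.04 and 6.03 CPM at P310. Its ages overlapped, and the log2 change at P12 against E16 was 0.40 ± 0.56 (SE, adjusted p = 0.646, edgeR) and was -1.14 without P12 replicate 2-3. Of its exon bases 9.66% overlap Gm45441 on the opposite strand.

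Grin3a, whose GluN3A subunit lowers calcium entry and magnesium block, stood at 8.28, 5.13 and 4.95 CPM at E16, and at 10.3 CPM in P12 replicate 1 and 21.1 CPM in P12 replicate 2-3. It stood at 10.1, 5.43 and 10.5 CPM at P80, and at 8.84, 9.57, 7.49 and 1.87 CPM at P310. Both P12 samples were above all E16 samples, and the adult samples overlapped them. The log2 change at P12 against E16 was 1.36 ± 0.60 (SE, adjusted p = 0.106, edgeR), and it was called in 4 of 23 alternatives, limma-voom among them (1.52, adjusted p = 0.00958). Relative to Grin1, per kb, Grin3a averaged -2.26 ± 1.29 on the log2 scale after birth (SD, n = 9) and -1.40 ± 0.46 at E16 (SD, n = 3), a difference of -0.87 (exact two-sided permutation p = 0.309, adjusted p = 0.667). Per 100 CPM of OPC markers it stood at 0.75 to 2.76 CPM in the later samples and at 0.528 to 0.772 CPM at E16, with the lowest later sample, P310 replicate 4, inside the E16 range. The sum of these markers was itself lower in the adults (365 to 493 CPM at P80, 249 to 528 CPM at P310) than at E16 (880 to 1073 CPM). A smaller divisor thus enters the adult values on this scale.

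Grin3b, the gene of the GluN3B subunit known from motor neurons, stood at 5.69, 5.91 and 5.37 CPM at E16, and at 2.05 CPM in P12 replicate 1 and 4.88 CPM in P12 replicate 2-3. It stood at 5.45, 3.21 and 4.24 CPM at P80, and at 12.8, 11, 5.44 and 7.73 CPM at P310. Both P12 samples were below all E16 samples, and 3 of the 4 P310 samples were above every other sample. None of its changes passed the test. Of its exon bases 32.13% overlap Tmem259 on the opposite strand, which stood at 51.9 to 85.4 CPM. The reads of the shared part cannot be told apart from those of Tmem259.

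Compared per kb of exon, the order of the 7 genes differed between the later ages and the embryo. After birth Grin2c was the highest in 9 of 9 samples, at 3.73 to 20.6 CPM per kb and 38.2% to 67.8% of the summed level of the 7 genes, against 0.697% to 2.15% at E16. Grin1 was second in P12 replicate 2-3, P80 replicates 1 and 2, and P310 replicates 1, 2 and 3. This order depends on the exon length used as divisor, 5037 bases for Grin2c and 9700 for Grin1. In CPM, not divided by length, Grin1 was above Grin2c in P12 replicate 2-3, P80 replicate 1 and P310 replicates 1, 2 and 3. It was below Grin2c in the other later samples. Grin2b made up 1.53% to 9.48% of the sum after birth, against 57.9%, 55.4% and 51.5% at E16. At E16 Grin2b was the highest in 3 of 3 samples, at 7.12, 6.20 and 5.04 CPM per kb. Grin3b, Grin1 and Grin2d followed there at 1.63 to 1.79, 1.27 to 1.5 and 1.05 to 1.28 CPM per kb, of which Grin1 and Grin2d overlapped. Since 32.13% of the exon bases of Grin3b overlap Tmem259, its rank and the summed level may include reads of Tmem259. Grin3a came next at 0.403 to 0.674 CPM per kb, and Grin2a (0.0908 to 0.140) and Grin2c (0.0857 to 0.211) were lowest and overlapped. The summed level of the 7 genes averaged 4.29 ± 0.85 on the log2 scale after birth (SD, n = 9) and 3.47 ± 0.16 at E16 (SD, n = 3), a difference of 0.82 that did not pass the test (exact two-sided permutation p = 0.136, adjusted p = 0.682).

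After P12 no subunit gene passed the test. At P80 against P12, 0 of 7 were called by edgeR, DESeq2 or limma-voom, beside 1.42% of all genes by edgeR (0.406% higher and 1.02% lower), and 0 of 7 had an unadjusted p below 0.05. Their log2 changes lay between -0.86 ± 0.59 for Grin3a and 0.71 ± 0.63 for Grin2c (SE, adjusted p from 0.761 to 0.99). At P310 against P80, 0 of 7 were called by any of the 3 tools. By edgeR 0 genes of 21170 were called there (a background of 0%), while 1162 genes had an unadjusted p below 0.05, DESeq2 called 28 and limma-voom 0. Grin3b was the 1 subunit gene with an unadjusted p below 0.05, at a log2 change of 1.09 ± 0.47 (SE, unadjusted p = 0.0343, adjusted p = 0.871, edgeR). At P310 against P12, 0 of 7 were called by any of the 3 tools, beside 2.51% of all genes by edgeR (0.713% higher and 1.79% lower). Grin3b was again the 1 gene with an unadjusted p below 0.05, at 1.40 ± 0.55 (SE, unadjusted p = 0.0221, adjusted p = 0.267, edgeR), and Grin3a was at -1.19 ± 0.56 (SE, adjusted p = 0.408). These 2 comparisons share the P310 samples. Over all 4 ages together Grin2c was called (adjusted p = 0.000128, edgeR), Grin2a just missed (adjusted p = 0.0513, called in 11 of 22 alternatives), and the other 5 genes lay between adjusted p = 0.117 and 0.89, so that 1 of 7 was called, beside 37.1% of all genes.

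**Figure D4:**
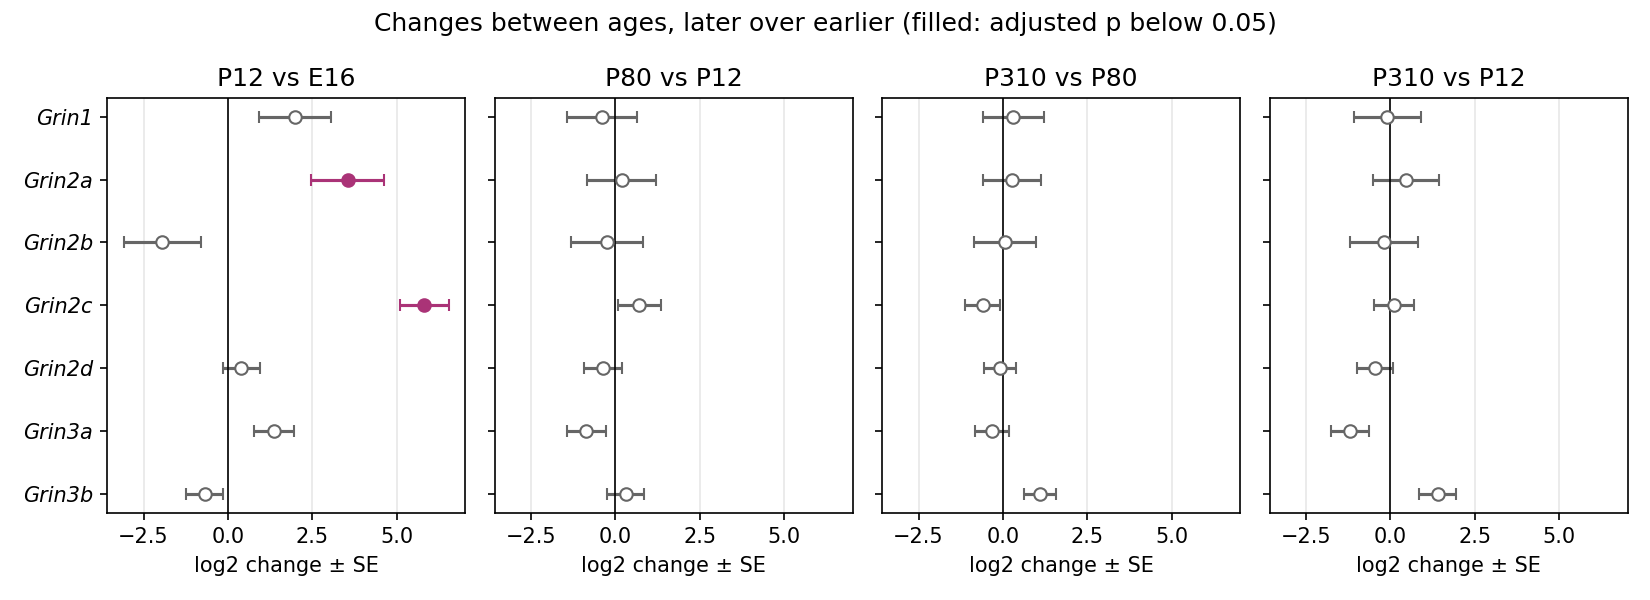
Log2 change ± SE of each subunit gene in 4 comparisons, the later age over the earlier, from the edgeR fit, with filled points where the adjusted p was below 0.05. Grin2a (3.54) and Grin2c (5.81) at P12 against E16 are the filled points, and no point is filled in the comparisons among the later ages.

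Genes of proteins that hold or serve the receptor moved in both directions at P12 against E16, where 16.7% of all genes tested rose and 10.5% fell, with a median log2 change of 0.09. Of 16 scaffold genes 2 rose and 4 fell, with a median log2 change of -0.20. Shank3, a core scaffold of the postsynaptic density, rose by 2.81 ± 0.27 and Iqsec2, an exchange factor bound to the density, by 1.33 ± 0.32 (SE, adjusted p = 1.8e-06 and 0.00639, edgeR). Dlg3 and Dlg4, which encode the receptor-binding scaffolds SAP102 and PSD-95, fell by 2.0 ± 0.36 and 1.92 ± 0.45, and Dlgap4, which links these scaffolds to Shank proteins, fell by 1.16 ± 0.26 (SE, adjusted p = 0.000714, 0.00554 and 0.00398). Of the immature neuron markers 13 of 15 fell and 0 rose. Of the 16 mature ones 5 fell and 1 rose, Thy1 by 2.17 ± 0.61 (SE, adjusted p = 0.0161, edgeR). The part of neurons in the falls of the scaffold genes was not tested. Of 15 genes of kinases and downstream enzymes 3 rose and 3 fell, with a median of -0.06. Ptk2b, the calcium-activated tyrosine kinase Pyk2, stood at 22.2 ± 10.5 CPM at P12 (SD, n = 2) and 1.10 ± 0.585 CPM at E16 (SD, n = 3), a rise of 4.31 ± 0.52 (SE, adjusted p = 1.86e-05). Camk2d, a CaM kinase II subunit, and Rasgrf2, a calcium-dependent Ras activator, rose by 1.48 ± 0.28 and 2.27 ± 0.58. Rasgrf2 stood at 2.24 and 13.1 CPM in the P12 samples and at 1.06 to 2.23 CPM at E16. Its lower P12 sample was thus near the highest E16 sample. The calcineurin gene Ppp3cb, the Src-family kinase gene Fyn and the casein kinase 2 gene Csnk2a1 fell by 1.62 ± 0.30, 0.93 ± 0.29 and 0.94 ± 0.30.

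A list of 10 genes was taken for the supply of glycine and D-serine, the co-agonists, though 1 of them, Ddo, acts on D-aspartate instead. Of the 10 genes 4 rose, Ddo among them, and 1 fell at P12 against E16, beside the 16.7% and 10.5% of all genes. Their median log2 change was 1.48, beside 0.09 over all genes, and the list as a whole was not tested. Ddo, which degrades D-aspartate, itself an agonist of the receptor, stood at 6.92 ± 2.44 CPM at P12 (SD, n = 2) and 0.533 ± 0.151 CPM at E16 (SD, n = 3), a rise of 3.68 ± 0.53 (SE, adjusted p = 0.000107, edgeR). Slc7a10, a D-serine and small amino acid exchanger, rose by 2.94 ± 0.46, and Slc1a4, a transporter that also takes up serine, by 1.81 ± 0.43 (SE, adjusted p = 0.000214 and 0.00577). Gldc, of the glycine cleavage system, fell by 1.06 ± 0.35 (SE, adjusted p = 0.0381). Astrocytes express several of these genes. Astrocyte, endothelial and microglial markers rose at P12 against E16, as given for Grin2c, while Gldc fell. The part of these cells in the levels of the listed genes was not tested. Later, Slc1a4 was the 1 gene of the 3 lists called at P80 against P12. It stood at 14.9 ± 8.43 CPM at P80 (SD, n = 3) and 92.6 ± 29.4 CPM at P12 (SD, n = 2), a log2 change of -2.64 ± 0.44 (SE, adjusted p = 0.00625). At P310 against P12 Slc1a4 fell by 3.46 ± 0.41, and Nos1, neuronal nitric oxide synthase, and Rasgrf2 rose by 1.90 ± 0.36 and 3.12 ± 0.62 (SE, adjusted p = 0.000324, 0.00961 and 0.0153). No gene of the 3 lists was called at P310 against P80 by edgeR.

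The genes whose pattern over the 12 samples was most like that of each subunit gene were found by the root-mean-square difference of centred log2 CPM among 18027 genes, given here as a description. For Grin1 they were Rimbp2 (0.35), Cnnm1 (0.39) and Camk2a (0.40), where the median gene lay 1.55 away. For Grin2a they were Zfp831 (0.44), Unc80 (0.46) and Grm7 (0.50), and for Grin2b Cadps (0.24), B4galnt4 (0.31) and Ptpn5 (0.39), with medians of 1.97 and 1.75. Rimbp2 binds presynaptic scaffolds, Camk2a is a CaM kinase II subunit, Grm7 is a glutamate receptor, Cadps primes secretory vesicles and Ptpn5 is the tyrosine phosphatase STEP. The nearest to Grin2c were Klf9 (0.71), Neu2 (0.72) and Aldh1a1 (0.75), with a median of 2.70. A gene that varies more lies farther from other genes by this measure, so each distance is to be read beside its median. The genes nearest to Grin2d included Rarb (0.32) and Gpr162 (0.36), with a median of 0.95. For Grin3a they were Slc13a3 (0.38), Cadm2 (0.43) and Chst1 (0.43), with a median of 1.13. For Grin3b they were 2810410L24Rik (0.30), Pdzd7 (0.31) and 4933408N05Rik (0.35), with a median of 1.05. Between subunit genes, Grin2d and Grin3b had the smallest distance (0.64), though their medians were low as well, and Grin2b and Grin2c the largest (3.75). Grin1 lay nearer to Grin2a (0.90) than to Grin2b (1.74).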

How the data were processed

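Bulk total RNA of Pdgfra-sorted mouse brain cells was prepared with a stranded low-input kit, per the labels. Per the file headers, the authors counted reads with featureCounts 1.5.0-p1 over the exons of each gene (GRCm38, Ensembl release 92) and deposited these counts unscaled. A read in several genes or places counted for each, strand was ignored, and 10 shared bases sufficed. The submitters' processing notes name Trim Galore and TopHat2 2.1.1. Library totals were 8669521 to 25810455 counts.

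The title's age set each sample's group. The labels number them as separate mice. P12 replicates 2 and 3 were summed. Symbols came from GENCODE M21 (37715 of 37785 genes). Genes passing filterByExpr were scaled by TMM and fitted with a mean per age over 12 samples with the robust quasi-likelihood test of edgeR 4.0.16 (R 4.3.3), with Benjamini-Hochberg adjustment over 21170 genes and a threshold of 0.05. Ratios were compared by exact two-sided permutation tests. The members, lists and comparisons were chosen with earlier results of these data known. All 7 members are named, up to 3 called genes of each list, direction and comparison with the smallest adjusted p, and the 3 genes nearest in pattern to each member, of which 1 is not reported here. Alternatives were RLE factors, other filters, DESeq2 1.42.0, limma-voom (limma 3.58.1), only the ages compared, the replicate number as a term, counts without mitochondrial, ribosomal protein and haemoglobin genes, P12 libraries kept apart, other pseudocounts, raw totals and leaving out samples. On simulated data with 200 genes changed 4-fold among 20462 genes, the fit recovered 41.5% at P12 against E16, with 2 false calls.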

Additional observations from a re-analysis of the deposited data

How the results depend on the processing

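The call of Grin2c at P12 against E16 held in all 23 alternatives (log2 change 4.66 to 6.47), and no alternative called a subunit gene in the 3 later comparisons. The number of subunit genes called at P12 against E16 (2) ran from 1 to 3 when single samples were left out, and over all ages (1) from 1 to 2. With the low-count filter removed, 4 were called at P12 against E16 and 4 over all ages, where the fit gave an infinite prior degrees of freedom and so did not use each gene's own spread. Over all ages 2 were called with the stricter filter, limma-voom or the P12 libraries kept apart, and 3 with DESeq2.

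The replicate numbers did not pair the samples (correlation of deviations -0.09 to 0.21 over 15 pairs of the same number, 2 of them over 0.1). With the replicate block, 1 gene was called at P12 against E16 and 2 over all ages, and at P80 against P12 the changes of Grin1 and Grin2b were 0.18 and 0.22, and at P310 against P12 0.83 and 0.68.

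Changes that passed no test often changed sign between settings, and the cause was not tested. With limma-voom, Grin1 was 0.04 at P80 against P12, Grin1, Grin2a and Grin2b were -0.33, -0.31 and -0.40 at P310 against P80, and Grin2a and Grin2c were -0.08 and -0.39 at P310 against P12. With the P12 libraries kept apart, Grin2a was -0.15 at P80 against P12, Grin2c was -0.12 at P310 against P12, the Grin3a to Grin1 ratio differed by -0.19 at P12 against E16, and the summed level by -0.06 at P310 against P12 (by -0.04 with raw totals).

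Without the samples highest in mature neuron markers, 1 gene was called at P12 against E16 and 3 over all ages, and the ratio of Grin2a to Grin2b differed by 5.41 between later samples and E16 (adjusted p = 0.119). At P12 against E16 Grin1 was then -1.06, Grin2d -1.14 and the summed level -0.65. These are the values without P12 replicate 2-3 alone, since P12 replicate 1 was the only P12 sample left. At P80 against P12 Grin1, Grin2b and Grin2d were 2.64, 1.84 and 1.39, at P310 against P80 Grin1, Grin2a and Grin2b were -0.12, -0.09 and -0.59, and at P310 against P12 Grin1, Grin2b and Grin2d were 2.52, 1.25 and 1.12. Without the 2 samples highest in myelin markers, 3 genes were called over all ages, and the ratio of Grin2a to Grin2b differed by 5.53 (adjusted p = 0.0833). Grin2a and Grin3b were then -0.65 and -0.16 at P80 against P12, Grin1, Grin2a and Grin2b were -0.13, -0.37 and -0.62 at P310 against P80, and Grin2a and Grin2c were -1.02 and -0.99 at P310 against P12. The Grin3a to Grin1 ratio differed by -1.13 at P12 against E16 and 0.33 at P80 against P12, and the summed level by -0.55 at P80 against P12 and -1.14 at P310 against P12. Both settings were chosen after seeing the data.

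When single samples were left out, the ratio of Grin2a to Grin2b differed by 5.30 to 5.59 between later samples and E16 and by -0.21 to 0.19 at P310 against P80. The Grin3a to Grin1 ratio ran from -1.13 to 1.74 at P12 against E16, from -2.54 to 0.33 at P80 against P12 and from -1.15 to 0.15 at P310 against P80. The summed level ran from -0.65 to 1.62, -0.55 to 1.72, -0.59 to 0.11 and -0.82 to 1.45 at P12 against E16, P80 against P12, P310 against P80 and P310 against P12. At P12 against E16 Grin1 ran from -1.06 to 2.89 and Grin2d from -1.14 to 1.12. At P80 against P12 Grin1 ran from -1.31 to 2.64, Grin2a from -0.68 to 2.77, Grin2b from -1.07 to 1.86, Grin2d from -1.09 to 1.16 and Grin3b from -0.18 to 1.06. At P310 against P80 Grin1 ran from -0.15 to 0.93, Grin2a from -0.36 to 0.61, Grin2b from -0.62 to 0.79 and Grin2d from -0.30 to 0.05. At P310 against P12 Grin1 ran from -1.0 to 2.95, Grin2a from -0.42 to 3.03, Grin2b from -1.02 to 1.92, Grin2c from -0.53 to 1.25 and Grin2d from -1.18 to 1.08. Where this left 1 sample at P12, that sample was assumed to vary like the other ages.

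P12 had n = 2, with samples up to 15.5-fold apart for Grin1. Simulated 4-fold changes were recovered for 29.5% to 47.5% of genes in the 4 comparisons, so a change of that size can be missed. Grin2c at E16 rests on 6 to 18 counts per library.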
